A study of Rattus norvegicus with 18 samples.

Results

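Genes for the subunits of voltage-gated potassium (Kv) channels were followed in RNA from the ventral tegmental area (VTA) of rats. They were taken by symbol: Kcna, Kcnb, Kcnc, Kcnd, Kcnf, Kcng, Kcnh, Kcnq, Kcns or Kcnv with a number, Kcnab with a number or Kcnip with a number, at 1 CPM (a gene's count scaled to its library's total) or more in at least 6 of 18 libraries. Of 47 genes with such a symbol, 38 met that level, out of 15087 genes at the same level and 38445 genes in the files. The 38 genes are 6 of 8 Kv1 genes, both Kv2 genes, all 4 Kv3 and all 3 Kv4 genes, 4 of 5 Kv7 genes, 5 of 8 Kv10 to Kv12 genes, 8 of 10 modifier genes, all 3 Kv beta genes and 3 of 4 KChIP genes. Just inside the level were Kcns1, at 1 CPM or more in 13 rats, Kcnf1 in 16, and Kcns2 and Kcnv1 in 17. Outside it were Kcnh8 (2 rats), Kcnh3 (1 rat), and Kcna7, Kcna10, Kcng3, Kcnh5, Kcnip2, Kcnq1 and Kcnv2 (0 rats). At 0.5 CPM the set would hold 41 genes, and at 2 CPM 36.

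The VTA, in the midbrain, contains dopamine neurons that project to the forebrain reward circuit, mixed with GABA and glutamate neurons and glia. The study compared 3 groups of 6 wild-type adult male Sprague Dawley rats, 1 library per rat, each with its own animal identifier. All were fed a Lieber-DeCarli liquid diet over 15 or 16 days: the control diet in rats 1 to 6, and ethanol at 9% v/v in rats 7 to 12 (chronic ethanol, withdrawn for 0 h) and rats 13 to 18 (withdrawal, 24 h off ethanol). The tissue was a dissected block of mixed cells, and in such bulk RNA fewer cells of a type and less RNA per cell cannot be told apart.

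A Kv channel is a ring of 4 alpha subunits around a potassium pore. It opens when the membrane depolarises, and the potassium that leaves the cell ends the action potential and sets the pause before the next. Kv1 channels, mostly in axons, open near threshold. Kv2 channels give the slow delayed rectifier current of the cell body, Kv3 channels switch fast enough for rapid firing, and Kv4 channels carry the transient A-type current that delays the next spike in pacemaking neurons. Kv7 channels form the M current, which acetylcholine shuts, and the Kv10 to Kv12 group includes the ERG channels. Modifier subunits make no channel alone but change Kv2 channels they join. Kv beta subunits bind Kv1 channels, and KChIPs are calcium-binding proteins that bind Kv4 channels and raise their number at the surface.

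Libraries held 29566318 to 45079983 counts, and 3 counts, which a gene seen 0 times could still have at 95% confidence, equal 0.0665 to 0.101 CPM (counting error only). All 15 dopamine neuron markers were above 0 in every rat, and their summed level ranged from 1404 to 4101 CPM in control, from 591 to 4048 CPM in chronic ethanol and from 515 to 3419 CPM in withdrawal rats. 4 rats stood apart. Control rat 5 and ethanol rat 8 had Slc17a7, a vesicular glutamate transporter, at 508 and 408 CPM and Hoxb3, a hindbrain patterning gene, at 31.3 and 30.6 CPM. Withdrawal rat 13 had Tph1, a pineal gland enzyme, at 14977 CPM against at most 7.43 CPM elsewhere. Withdrawal rat 17 had Slc6a3, the dopamine transporter, at 2.56 CPM against 68.1 CPM or more elsewhere, and Th, which makes the dopamine precursor, at 17.6 CPM. A list of 10 genes of neighbouring regions summed to 5.29 to 45.3 CPM in control, 9.72 to 324 CPM in chronic ethanol and 9.86 to 15657 CPM in withdrawal rats, with Hoxb3, Hoxb4, Hoxa5, Hcrt and Gabra6 at 0 in some rats. The 324 CPM was ethanol rat 7, which had Pmch, a hypothalamic peptide gene, at 292 CPM. Beyond fits with the mean of the dopamine neuron markers as a term, the part of these tissue differences in the group comparisons was not tested. Changes of named subunit genes that rest on the 4 rats are therefore given with and without them.

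Levels can be compared between genes only per length, here as RPKM (CPM per kilobase of the exon length in the files). Model lengths ran from 1578 bases (Kcna3) to 12699 bases (Kcnh7), and how complete each model is was not tested. In control rats the mean ran from 74.9 ± 7.45 RPKM for Kcnab2 to 0.353 ± 0.126 RPKM for Kcns1 (SD, n = 6), a 212-fold range. The first 8 genes, with Kcnab2, Kcna6, Kcnc1, Kcna1, Kcna2 and Kcnd3 among them, held 59.1% of the summed RPKM of all 38. In all, 12 genes were above 20 RPKM and 14 below 2 RPKM. Along the order, 34 of 37 neighbouring pairs overlapped in their control ranges. The exceptions were the gaps below Kcnab2, below Kcnab3 at 24.2 ± 3.94 RPKM, and below Kcnip4 at 8.86 ± 0.615 RPKM.

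**Figure D1:**
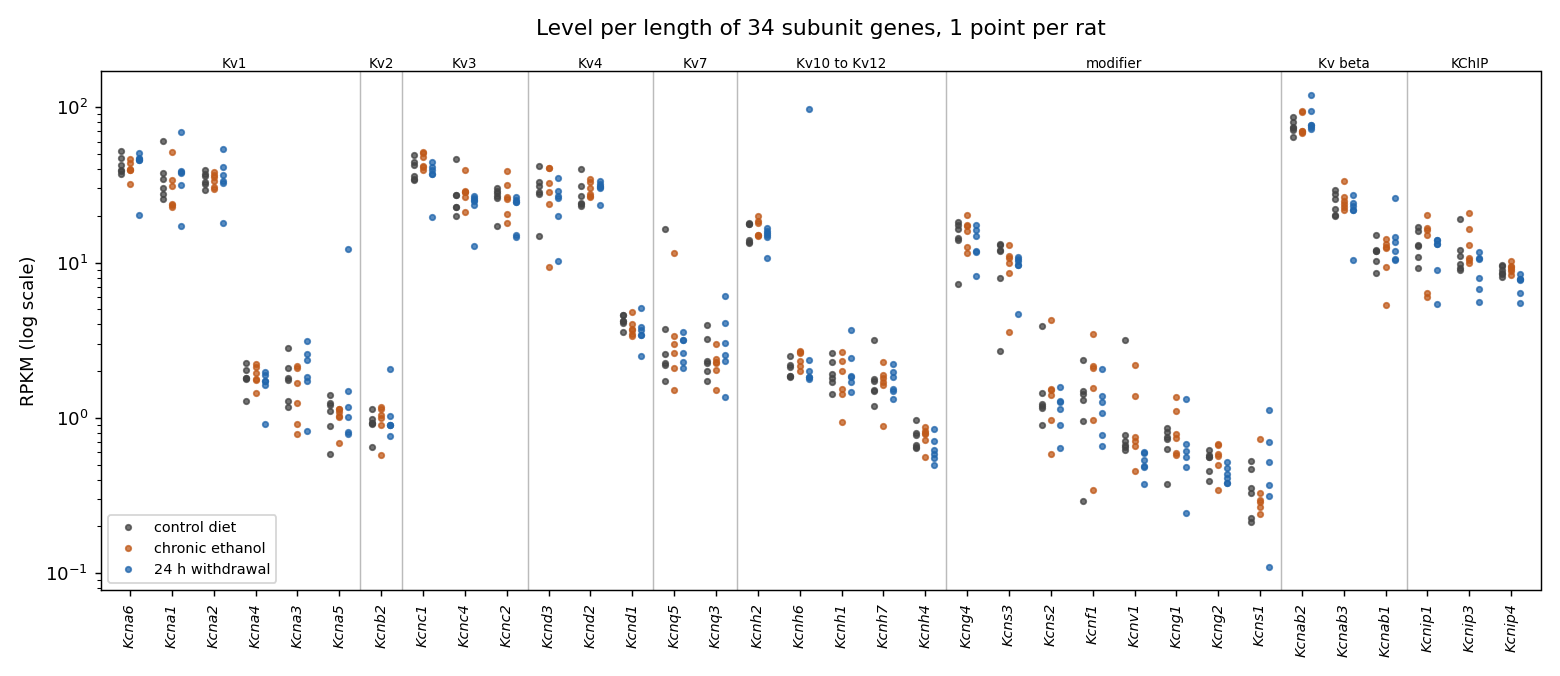
Level per length of 34 of the subunit genes in RPKM on a log axis, by family and by control level within a family, 1 point per rat, coloured by group. Kcnab2 stands highest, at 74.9 RPKM in control, the points of the 3 groups lie over each other in nearly every gene, and lone high points are seen for Kcnh6 and Kcna5.

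Among the Kv1 genes, 3 were abundant and 3 scarce. Kcna6, Kcna1 and Kcna2 stood at 42.9 ± 5.63, 36.1 ± 12.9 and 34.4 ± 3.55 RPKM in control, and Kcna3, Kcna4 and Kcna5 at 1.08 to 1.83 RPKM. Kcna6 counts ranged from 249.7 to 348 CPM (median 275) in control, 216 to 311 CPM (median 267) in chronic ethanol and 136 to 338 CPM (median 309) in withdrawal rats. The groups overlapped, and rat 13 was the low withdrawal rat, below every other rat. Kcna1, Kcna5 and Kcna6 lie in a row on chromosome 4 of Rnor_6.0, at chr4:159190781-159192526, chr4:159077195-159079003 and chr4:159253934-159287193, all on the minus strand. In rat 13 these neighbours went apart, with Kcna5 at its highest (22.1 CPM) and Kcna1 and Kcna6 at their lowest (30.1 and 136 CPM) of all 18 rats.

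Kcnb2, a Kv2 delayed rectifier subunit, was scarce, at 0.923 ± 0.161 RPKM in control (SD, n = 6). It was highest in rat 13, at 16.1 CPM, and the other 17 rats lay between 4.51 and 9.22 CPM in overlapping groups.

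Kv3 genes were abundant. In control Kcnc1 stood at 40.3 ± 6.32 RPKM, Kcnc4 at 27.7 ± 9.62 and Kcnc2 at 26.2 ± 4.66 (SD, n = 6). Kcnc1, a channel of fast-firing neurons, ranged from 162 to 235 CPM (median 186) in control, 188 to 243 CPM (median 212) in chronic ethanol and 93.5 to 212 CPM (median 182) in withdrawal rats. The groups overlapped, with rat 13 lowest. Kcnc2 was 10.0%, 11.3% and 9.34% of the family's RPKM in rats 5, 8 and 17, against 15.7 to 25.4% in the other rats, rat 13 included.

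Of the Kv4 genes, Kcnd3 and Kcnd2 were nearly level, at 29.5 ± 8.76 and 28.2 ± 6.41 RPKM in control, and Kcnd1 stood at 4.21 ± 0.382 RPKM. As background, Kcnd3 is known as the main A-type pore subunit of midbrain dopamine neurons, while Kcnd2 is widespread in brain. Kcnd2 ranged from 93.6 to 160.0 CPM (median 103) in control, 106 to 139 CPM (median 116) in chronic ethanol and 94.2 to 135 CPM (median 124) in withdrawal rats. Kcnd3 ranged from 101 to 285 CPM (median 203), 63.9 to 276 CPM (median 207) and 69.7 to 239 CPM (median 179) in the same order. Groups overlapped for both, but Kcnd3 spread 4.46-fold over the 18 rats and Kcnd2 1.71-fold. The share of Kcnd3 in the Kv4 genes, per length, was 47.3 ± 12.2% in control, 44.9 ± 14.2% in chronic ethanol and 40.7 ± 8.55% in withdrawal (SD, n = 6), with 19.2% in rat 8 as the lowest and 60.1% in rat 2 as the highest.

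The 250 bases before the annotated starts of Kcnd3 and Kcnd2 are shown, from RefSeq on GRCr8, 5′ to 3′ on the gene's strand, with CG dinucleotides in capitals. Whether these bases bear on the spread among rats was not tested. Kcnd3 is at chr2:195626066-195626315 (plus strand) and Kcnd2 at chr4:50742235-50742484 (plus strand).
Kcnd3: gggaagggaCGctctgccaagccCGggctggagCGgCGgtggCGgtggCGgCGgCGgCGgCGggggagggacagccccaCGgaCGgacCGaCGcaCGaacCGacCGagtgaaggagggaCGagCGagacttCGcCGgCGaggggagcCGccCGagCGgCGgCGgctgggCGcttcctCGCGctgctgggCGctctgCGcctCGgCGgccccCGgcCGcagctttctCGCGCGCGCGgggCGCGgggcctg
Kcnd2: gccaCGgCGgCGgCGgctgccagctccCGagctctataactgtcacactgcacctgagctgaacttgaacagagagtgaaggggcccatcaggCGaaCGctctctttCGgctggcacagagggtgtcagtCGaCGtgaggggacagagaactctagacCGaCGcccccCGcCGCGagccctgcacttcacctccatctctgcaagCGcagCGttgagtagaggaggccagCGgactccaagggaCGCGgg
The Kcnd3 window had 79.6% G and C with 43 CG dinucleotides, the highest of the 28 windows found for 25 of the 38 genes, and the Kcnd2 window had 64.0% with 20. Over the 28 windows the median was 64.6% G and C and 15.5 CG dinucleotides, against 54.0% and 8 over all 21851 protein-coding windows. The letters AAAGGTCA (or TGACCTTT on the other strand), the site known for Nr4a2, a factor of dopamine neurons, were in 1.06% of all windows and, of these genes, in those of Kcnc4 and Kcnh1. They were not in the window of Kcnd3 or Kcnd2, which says nothing on binding elsewhere.

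Of the Kv7 genes, Kcnq5 and Kcnq3, both subunits of M channels, stood at 4.81 ± 5.73 and 2.58 ± 0.845 RPKM in control (SD, n = 6). Kcnq5 ranged from 6.60 to 62.5 CPM (median 9.14) in control, 5.72 to 43.8 CPM (median 10.6) in chronic ethanol and 7.98 to 13.5 CPM (median 11.0) in withdrawal rats. Rats 5 and 8 were the high ones, where Kcnq5 made up 32.7% and 25.1% of the family, and the other 16 rats lay between 5.72 and 14.1 CPM in overlapping groups.

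In the Kv10 to Kv12 group, Kcnh2, the ERG channel of slow resurgent potassium current, led with 15.7 ± 2.32 RPKM in control and 70.5 ± 3.16% of the group. Kcnh2 ranged from 62.6 to 84.5 CPM (median 74.2) in control, 69.6 to 93.9 CPM (median 77.4) in chronic ethanol and 49.8 to 77.5 CPM (median 71.3) in withdrawal rats. The groups overlapped, with rat 13 lowest. Kcnh6, Kcnh1, Kcnh7 and Kcnh4 were at 0.751 to 2.07 RPKM. In rat 13, Kcnh6 reached 85.7% of the group and Kcnh2 made up 9.38%.

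Of the modifiers, Kcng4 and Kcns3 were well expressed, at 14.6 ± 3.92 and 10.1 ± 4.09 RPKM in control, and the other 6 were at 0.353 to 1.64 RPKM. Kcng4 ranged from 35.2 to 87.3 CPM (median 73.7) in control, 55.2 to 97.3 CPM (median 80.0) in chronic ethanol and 39.3 to 84.3 CPM (median 64.4) in withdrawal rats, with rats 5 and 13 lowest and all groups overlapping. Of the Kv beta genes, Kcnab2, a redox-sensing partner of Kv1 channels, ranged from 383 to 512 CPM (median 438) in control, 406 to 558 CPM (median 417) in chronic ethanol and 427 to 713 CPM (median 454) in withdrawal rats. It was highest in rat 13 and the groups overlapped. The KChIPs were at like levels, 13.2 ± 2.95 RPKM for Kcnip1, 11.6 ± 3.78 for Kcnip3 and 8.86 ± 0.615 for Kcnip4 in control. Kcnip1 ranged from 26.0 to 47.8 CPM (median 36.2), 16.8 to 56.4 CPM (median 44.0) and 15.2 to 39.4 CPM (median 37.0) in the 3 groups, with rats 8, 10 and 13 low. Kcnip2 was below the level used here.

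The subunits spread more among rats than most genes did. The SD of log2 CPM over 18 rats had a median of 0.41 over the 38 genes, against 0.25 over all 17637 genes tested, and 27.6% of all genes tested were above that 0.41. It ran from 0.20 to 1.31, the latter for Kcnh6, and was 0.90 for Kcna5. The 4 rats that stood apart held the highest value of 23 of the 38 genes and the lowest value of 25. How many of all genes had their highest or lowest value in these rats was not counted. Over the other 14 rats the median SD was 0.25 for the 38 genes and 0.17 for all genes, and 34.0% of all genes were above the former. The SD was smaller there for 37 of 38 genes (97.4%), as for 85.0% of all genes. Within a 2-fold range stayed 22 of 38 genes over these 14 rats (57.9%, against 69.5% of all genes) and 7 over all 18 (18.4%, against 47.2%). Rat 13 alone held the highest value of 7 genes and the lowest of 17, and 14 genes lay more than 1 log2 unit from their median there, as did 17.7% of all genes tested. In rat 8 that number was 9 genes (5.82% of all genes tested), in rat 5 it was 6 (7.06%) and in rat 17 it was 5 (4.06%).

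**Figure D2:**
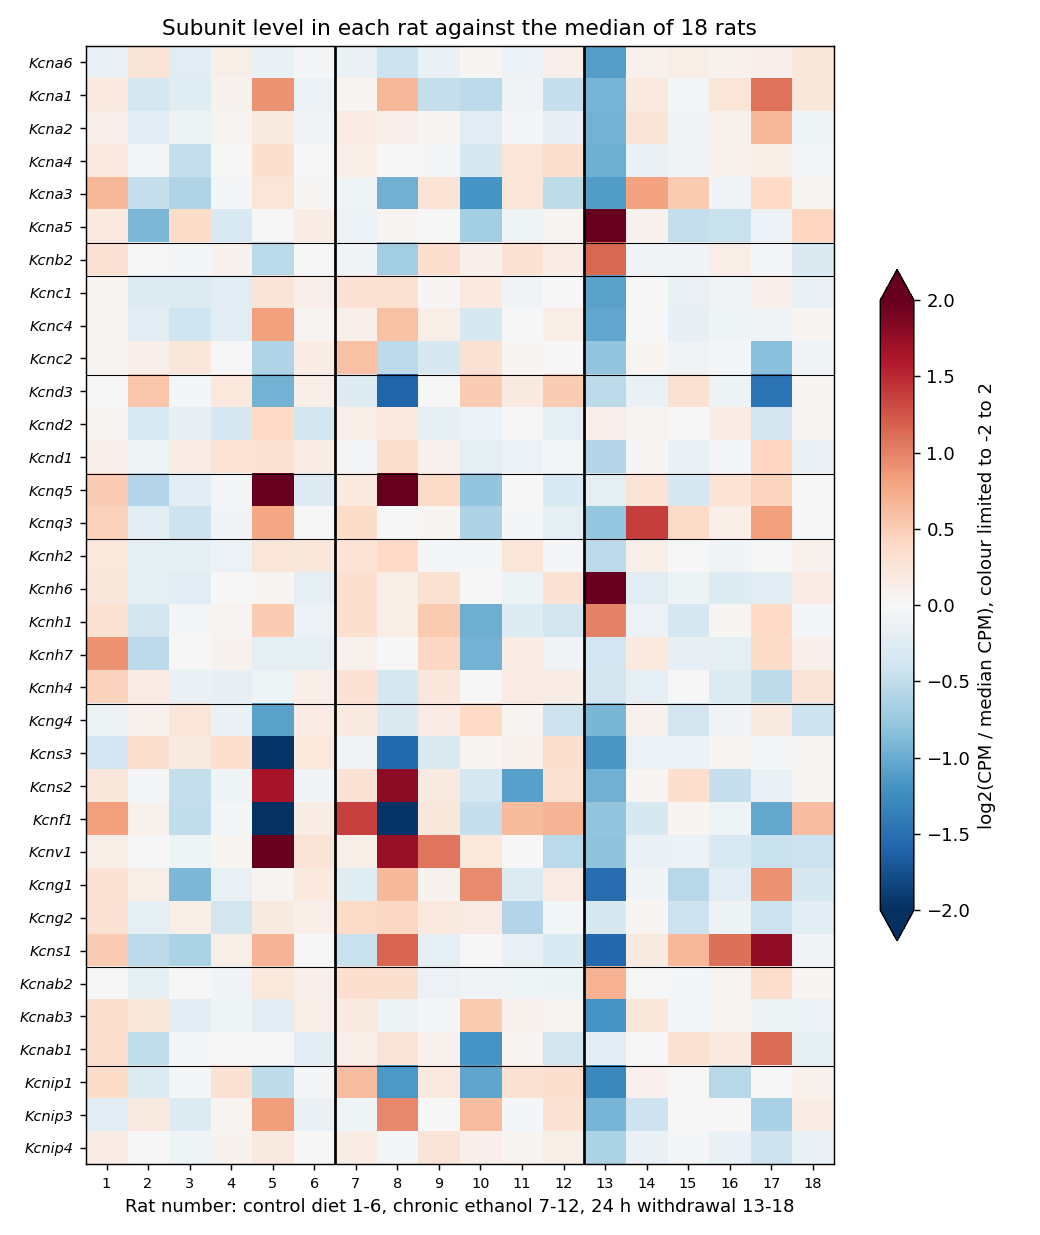
Level of 34 of the subunit genes in each rat as log2 of CPM over the median CPM of 18 rats, with families in blocks and the 3 groups separated by vertical lines. Columns 5, 8, 13 and 17 hold most of the strong colours. Rat 13 is the most distant, with 14 of all 38 genes more than 1 log2 unit away, as were 17.7% of all genes tested.

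Kcnh6 and Kcna5 were both highest in rat 13. Kcnh6, an ERG-type channel, was at 6.52 to 8.82 CPM (median 7.06) in control, 7.06 to 9.47 CPM (median 8.69) in chronic ethanol and 6.30 to 344 CPM (median 6.76) in withdrawal rats. Its 344 CPM in rat 13 was 36.3-fold above the next highest rat. Kcna5, a Kv1 subunit best known from heart and vessel wall, was at 1.06 to 2.55 CPM (median 2.10), 1.24 to 2.06 CPM (median 1.91) and 1.42 to 22.1 CPM (median 1.97) in the same order. Without rat 13 all groups overlapped in both genes. Rat 13 also had Aanat and Asmt, the melatonin synthesis enzymes, at 25.3 and 410.5 CPM, against at most 1.94 and 1.98 CPM elsewhere, and the part of such tissue in the subunit values was not tested.

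Since Kcnh6 and Kcna5 were high in a single rat together, the same windows before their starts are shown, with CG dinucleotides in capitals. Kcnh6 is at chr10:91449401-91449650 (plus strand) and Kcna5 at chr4:161043810-161044059 (minus strand) of GRCr8.
Kcnh6: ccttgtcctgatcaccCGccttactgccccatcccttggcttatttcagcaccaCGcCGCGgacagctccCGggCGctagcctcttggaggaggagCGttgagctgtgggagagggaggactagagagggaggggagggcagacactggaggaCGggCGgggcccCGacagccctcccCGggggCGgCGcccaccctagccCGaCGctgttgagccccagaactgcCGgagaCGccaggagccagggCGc
Kcna5: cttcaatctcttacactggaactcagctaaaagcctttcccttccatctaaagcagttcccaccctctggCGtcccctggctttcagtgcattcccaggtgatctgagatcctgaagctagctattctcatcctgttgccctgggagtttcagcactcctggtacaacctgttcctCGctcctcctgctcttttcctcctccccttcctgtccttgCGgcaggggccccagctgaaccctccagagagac
The Kcnh6 window had 69.6% G and C and 18 CG dinucleotides, and the Kcna5 window 54.8% and 3. The letters TAATCC (or GGATTA on the other strand), the core known for the pineal and retinal factor Crx, were in 6.04% of all 21851 windows and, of the 25 genes with a window, in that of Kcng4. Neither window shown holds them, which says only that these letters are not in these bases.

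The first comparison set chronic ethanol rats against control rats and asks what differs at the end of the ethanol diet. No subunit gene passed in this comparison. With edgeR's quasi-likelihood test and Benjamini-Hochberg adjustment over 17637 genes, 0 of 38 were called at an adjusted p under 0.05, against 0% of all genes tested. At an unadjusted p under 0.05 there were 0 of 38, against 5.84% of all genes (3.1% higher and 2.74% lower), and limma-voom called 0 of 38. DESeq2 gave no p-value for Kcna5, Kcnh6 and Kcnq5 in any group comparison, and called 0 of the other 35 here, against 0.269% of all genes. Of the 38 genes 24 were higher and 14 lower (48.7% of all genes were higher), with a median log2 change of 0.04, against -0.00 over all genes. That median was 0.13 with the first index in the model and 0.020 with the mean of the dopamine neuron markers as a term. It ran from 0.0031 (without rat 3) to 0.078 (without rat 5) when 1 rat was left out. The largest changes were 0.44 up (Kcnf1) and 0.30 down (Kcna3). The Kv3, KChIP and modifier genes were higher in 13 of 15 and the other families in 11 of 23, and none of these genes passed. These 3 families were pooled by hand with results known, so the split tests no family. In no gene were the groups apart, against 0.93% of all genes tested.

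Kcnc1 and Kcnd1 were among the 3 genes with the lowest p values of this comparison. Kcnc1, whose values are given above, had a log2 change of 0.17 ± 0.15 (SE), or 0.34 with the first library index in the model, and the groups overlapped over most of their range. Kcnd1, the scarcest Kv4 subunit here, ranged from 13.2 to 17.1 CPM (median 15.6) in control and 12.4 to 17.9 CPM (median 13.8) in chronic ethanol, a log2 change of -0.13 ± 0.13 that became 0.015 with the index. The adjusted p was 0.999 for both in edgeR. Without rats 5, 8, 13 and 17 the changes were 0.20 for Kcnc1 and -0.18 for Kcnd1. Their unadjusted p was then 0.029 and 0.028 in edgeR, and the adjusted p 0.332 and 0.329, so neither passed.

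**Figure D3:**
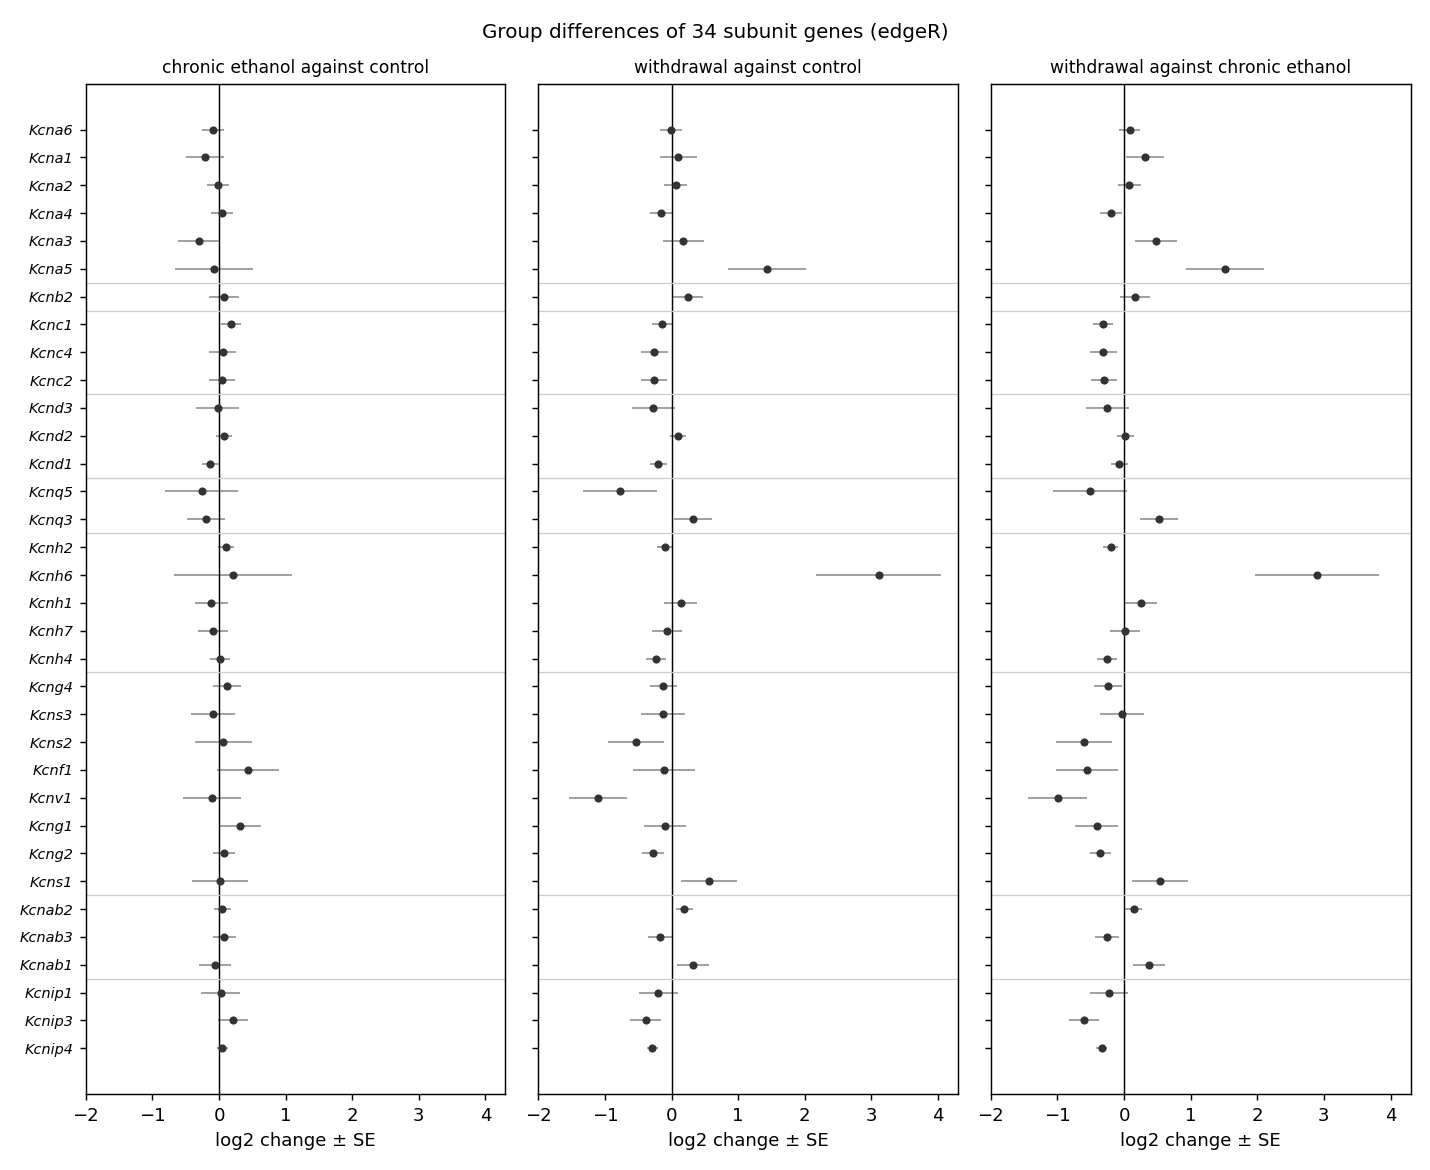
Log2 change and SE (bars) of 34 of the subunit genes in the 3 comparisons, by family, from edgeR. The points of Kcnh6 and Kcna5 far to the right in both withdrawal panels rest on rat 13, and none of them passed an adjusted p of 0.05.

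The second comparison set withdrawal rats against control rats and asks what differs 24 h after ethanol. Again 0 of 38 subunit genes were called, against 0% of all genes tested. By limma-voom it was also 0 of 38, and by DESeq2 0 of 35, against 0.298% of all genes (47). At an unadjusted p under 0.05 were 4 of 38 (10.5%), against 9.82% of all genes, which is near that background. They were Kcnh6 and Kcna5, higher (5.26%, against 6.24%), and Kcnip4 and Kcnv1, lower (5.26%, against 3.58%). Of the 38 genes 15 were higher and 23 lower (53.7% of all genes were higher), with a median log2 change of -0.11 against 0.01 over all genes. The median was -0.031 without rat 13, -0.051 without rat 1, -0.070 without rat 5 and -0.027 without rats 5, 8, 13 and 17. It was -0.0064 with the first index in the model and -0.103 with the mean of the dopamine neuron markers as a term. Of the KChIP, modifier and Kv3 genes 13 of 15 were lower (medians -0.29, -0.12 and -0.20). Rat 13 was the lowest of all 18 rats in several of these, with Kcnip1, Kcnip3, Kcnip4, Kcnc1, Kcnc4 and Kcnv1 among them. The split was not counted without that rat or without the 4 rats. Of the other families 13 of 23 were higher, with 2 of 3 Kv beta genes (median 0.19) and 4 of 6 Kv1 genes (median 0.08) among them. No gene of any family passed, and the pooling, set by hand with results known, tests no family.

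Kcnv1, a modifier of Kv2 channels, was the only member with groups apart (2.63%, against 0.607% of all genes in either direction and 0.38% lower). It ranged from 1.42 to 7.31 CPM (median 1.59) in control, 1.04 to 5.05 CPM (median 1.69) in chronic ethanol and 0.864 to 1.39 CPM (median 1.17) in withdrawal rats. The 6 withdrawal rats were all below every control rat, and rats 5 and 8 were the high ones. The log2 change against control was -1.10 ± 0.44 (SE, edgeR adjusted p = 0.458), and it was -0.31 without rats 5, 8, 13 and 17 and -0.43 without rat 5. Control and withdrawal libraries shared no first index, and a model that also held the index gave a change of -0.22 (adjusted p = 0.957).

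Kcnip4, a KChIP that binds Kv4 channels, ranged from 78.0 to 93.7 CPM (median 85.3) in control, 80.3 to 98.9 CPM (median 89.4) in chronic ethanol and 53.2 to 81.9 CPM (median 75.5) in withdrawal rats. The control and ethanol rats overlapped, 5 of 6 withdrawal rats lay below every control rat and every ethanol rat, and the 2 lowest were rats 13 and 17. Its log2 change was -0.29 ± 0.09 against control (edgeR adjusted p = 0.373) and -0.34 ± 0.09 against chronic ethanol (adjusted p = 0.124), neither of which passed. DESeq2 called it against chronic ethanol at -0.34 (adjusted p = 0.0286) and over the 3 groups (adjusted p = 0.0444), where it called 1.87% and 1.78% of all genes. Without rats 5, 8, 13 and 17 it was -0.14 against control and -0.24 against chronic ethanol (adjusted p = 0.579 and 0.122). Summed general neuron markers (9 genes, all above 0) ranged from 7058 to 9015 CPM in control and 5786 to 7937 CPM in chronic ethanol. In withdrawal rats the sum was 6760 to 9970 CPM, highest in rat 17. The mean log2 CPM of these markers was 7.75 in rat 13 and 8.29 in rat 17. It was 8.09 to 8.30 in control rats and lowest, at 7.73, in ethanol rat 10. The part of these markers was not tested.

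**Figure D4:**
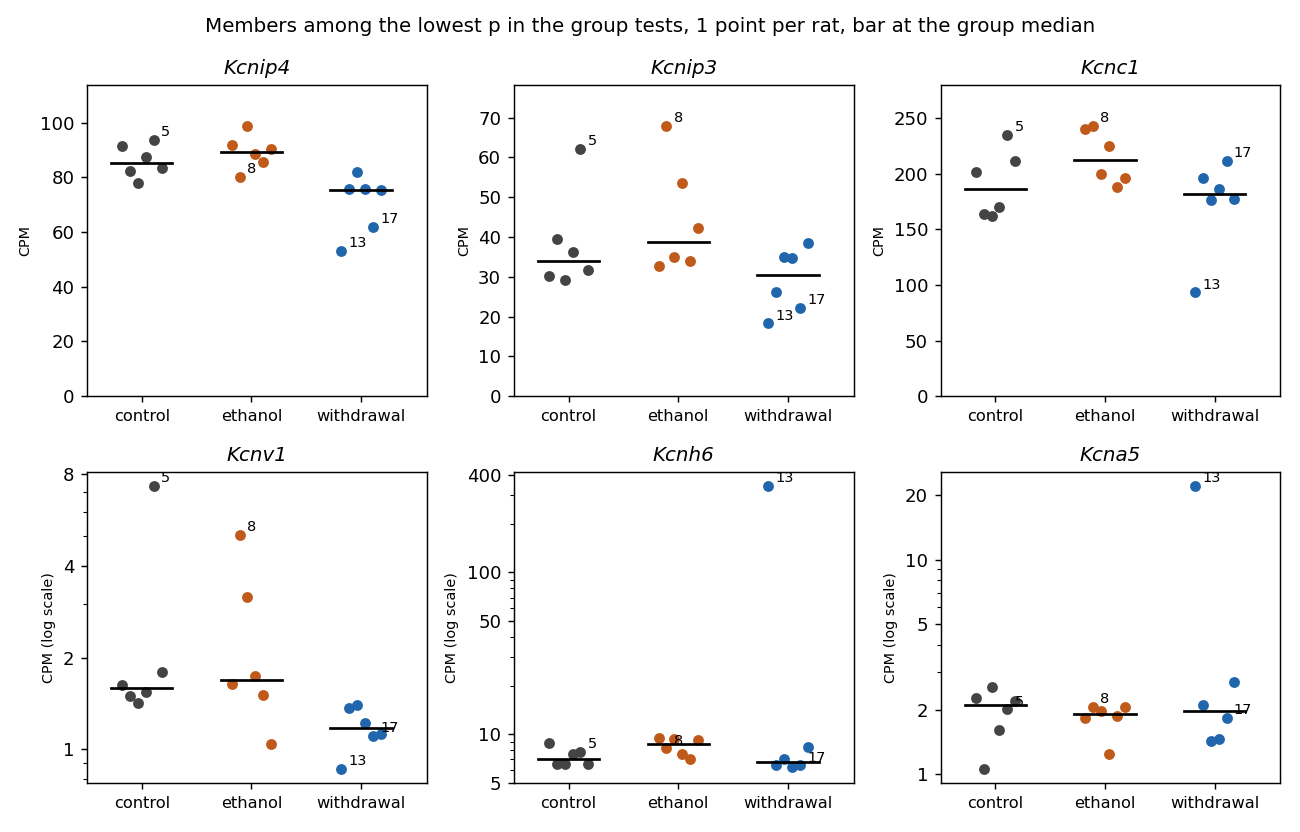
CPM of Kcnip4, Kcnip3, Kcnc1, Kcnv1, Kcnh6 and Kcna5 by group, 1 point per rat with a bar at the group median and rats 5, 8, 13 and 17 numbered; the lower 3 panels have a log axis. In Kcnip4 5 of 6 withdrawal rats sit below every other rat, in Kcnv1 rats 5 and 8 stand above, and in Kcnh6 and Kcna5 rat 13 alone is high.

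Withdrawal was also compared with chronic ethanol, the same diet without the 24 h break. Both withdrawal comparisons share the withdrawal rats, and the 3 comparisons share groups in pairs, so their values are given side by side and are not independent. Again 0 of 38 genes were called in edgeR, against 0% of all genes, and limma-voom called 0 of 38 while DESeq2 called Kcnip4 alone (1 of 35, with 301 of all genes, or 1.87%). At an unadjusted p under 0.05 were 7 of 38 (18.4%), against 15.3% of all genes. They were Kcnh6 and Kcna5 (higher, 5.26% against 9.38%) and 5 lower genes, with Kcnip4, Kcnip3, Kcnv1 and Kcng2 among them (13.2% against 5.94%). In this comparison 17 genes were higher and 21 lower (53.3% of all genes were higher), with a median log2 change of -0.13 against 0.02 over all genes. That median was -0.044 without rat 8, -0.081 without rat 7 and -0.158 without rat 17. It was -0.0994 without rats 5, 8, 13 and 17, and -0.105 with the first index in the model. With the mean of the dopamine neuron markers as a term it was -0.101. No gene had groups apart (1.36% of all genes, 0.544% lower). Of the KChIP, modifier and Kv3 genes 13 of 15 were lower (medians -0.34, -0.38 and -0.31). This split, too, was not counted without rat 13 or without rats 5, 8, 13 and 17. Of the other families 15 of 23 were higher, with 5 of 6 Kv1 genes (median 0.20) and 2 of 3 Kv beta genes (median 0.14) among them. None of these genes passed. The same hand-made pooling was used, and the comparisons share groups, so the repeated split tests no family.

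Kcnip3, a KChIP also known as a calcium-dependent repressor of transcription, ranged from 29.2 to 62.2 CPM (median 34.0) in control, 32.7 to 68.0 CPM (median 38.7) in chronic ethanol and 18.4 to 38.4 CPM (median 30.4) in withdrawal rats. Rats 5 and 8 were high, rats 13 and 17 low, and the groups overlapped. Its log2 change against chronic ethanol was -0.60 ± 0.23 (SE, edgeR adjusted p = 0.257), and -0.23 without those 4 rats. Kcng2, a scarce modifier, had a log2 change of -0.35 ± 0.16 (adjusted p = 0.311), and -0.22 without the 4 rats and -0.15 with the first index in the model.

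For Kcnh6 and Kcna5 the withdrawal values turned on rat 13. Kcnh6 had a log2 change of 3.11 ± 0.94 against control and 2.89 ± 0.93 against chronic ethanol (SE, edgeR adjusted p = 0.366 and 0.187), and without rat 13 it was -0.076 and -0.29. Kcna5 had 1.44 ± 0.59 and 1.52 ± 0.59 (adjusted p = 0.462 and 0.265), and without rat 13 -0.034 and 0.045. The other 5 withdrawal rats overlapped both other groups in each gene.

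A test of any difference among the 3 groups called 0 of 38 genes, against 0% of all genes tested. At an unadjusted p under 0.05 were 3 of 38, Kcnh6, Kcnip4 and Kcna5 (7.89%, against 11.5% of all genes). The lowest adjusted p was 0.165 for Kcnh6 in edgeR, with 0.166 for Kcnip4 and 0.356 for Kcna5. DESeq2 called 1 of 35, Kcnip4, with 298 of all genes (1.78%), and limma-voom 0 of 38.

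Dopamine neuron transcripts differed so much among rats of the same group that each subunit was also fitted against them. The measure was the mean log2 CPM of the 15 dopamine neuron markers, which ran from 2.82 in rat 17 and 3.82 in rat 8 to 6.72 in rat 12, with a median of 5.99. Group was kept in the fit, so the slope gives log2 units of a subunit per log2 unit of the markers among rats of a group. Kcnd3 went up with the markers, and Kcna1 and Kcnq5 were among the genes that went down. In all, 4 of 38 were called (10.5%, against 1.85% of all genes tested), 1 up (2.63%, against 1.33%) and 3 down (7.89%, against 0.527%). At an unadjusted p under 0.05 were 16 of 38 (42.1%), against 13% of all genes, with 4 up (10.5%, against 6.01%) and 12 down (31.6%, against 7.01%). Which cells hold each subunit was not measured.

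Kcnd3 had the slope 0.58 ± 0.05 (SE, edgeR adjusted p = 5.54e-06). The 4 rats with the highest marker means, 12, 2, 15 and 10, had the 4 highest Kcnd3 values, 276, 285, 239 and 275 CPM. The 4 with the lowest, 17, 8, 13 and 5, had the 4 lowest, 69.7, 63.9, 136 and 101 CPM. Kcnd3 was called in all 27 other fits, with slopes from 0.52 to 0.69 and a highest adjusted p of 0.00569, the latter without rats 5, 8, 13 and 17. Its Kv4 partner Kcnd2 had a slope of -0.05 ± 0.06 (adjusted p = 0.788), with 94.2 CPM in rat 17 and 139 CPM in rat 8. That value turned on rat 17: without it Kcnd2 went down with the markers, at -0.19 (adjusted p = 0.0377), and without rats 8 and 17, the 2 farthest from the median marker mean, at -0.27 (adjusted p = 0.0476).

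**Figure D5:**
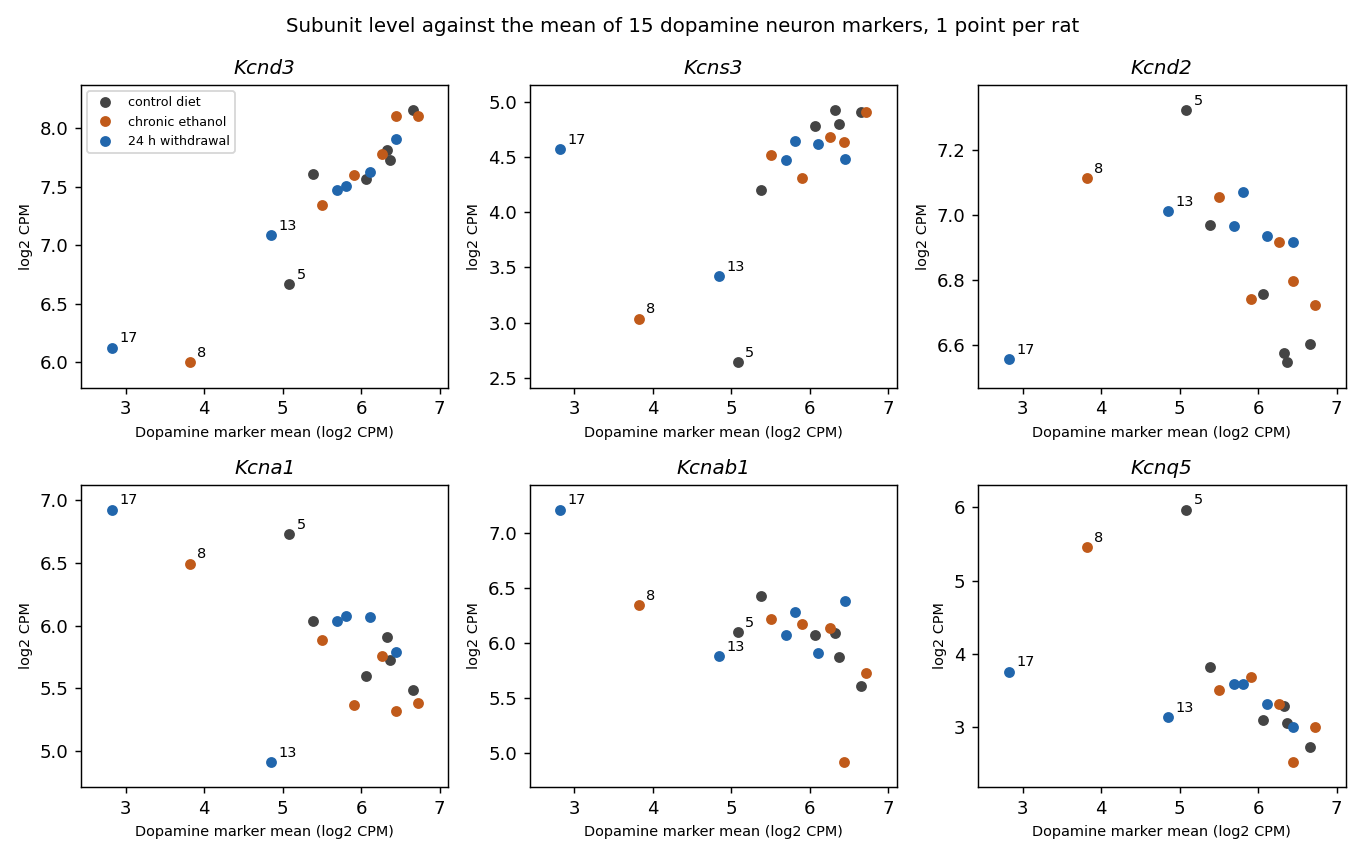
Log2 CPM of 6 subunit genes against the mean log2 CPM of 15 dopamine neuron markers, 1 point per rat, coloured by group, with rats 5, 8, 13 and 17 numbered. Kcnd3 climbs along the whole range (slope 0.58), Kcns3 climbs and Kcnd2 declines except for rat 17, and Kcna1, Kcnab1 and Kcnq5 are high in some of the rats with low marker means.

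Kcna1 and Kcnq5 were called in fewer settings. Kcna1, an axonal Kv1 subunit, ranged from 44.9 to 106 CPM (median 56.5) in control, 39.8 to 90.2 CPM (median 47.9) in chronic ethanol and 30.1 to 121 CPM (median 66.4) in withdrawal rats. Its high rats were 5, 8 and 17, its low one was rat 13, the groups overlapped, and the slope was -0.34 ± 0.08 (SE, edgeR adjusted p = 0.0400). It was called in 6 of 27 other fits, and was -0.34 without rats 5, 8, 13 and 17 (adjusted p = 0.203). Kcnq5, whose values are given above, had -0.72 ± 0.18 (adjusted p = 0.0436), and was called in 9 of 27 other fits. It was -0.73 without those 4 rats (adjusted p = 0.0260), but -0.57 without rat 8 alone (adjusted p = 0.463), which did not pass.

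Other subunits came near the threshold, and the count of called genes depended on which rats were in the fit. With 1 rat left out, only Kcnd3 was called in 10 of 18 fits, and 2 genes were called in 5 fits. The count rose only without rat 13 or rat 17. Over all genes these calls rose as well, from 1.85% to 6.21% without rat 13 and 5.26% without rat 17. Without rat 13 the members called were 10, with Kcna2, Kcnab1, Kcnab2, Kcnc2, Kcnd1 and Kcns1 added, and without rat 17 they were 7, with Kcnd3 and Kcnq5 kept and Kcnab2, Kcnd2, Kcns3 and Kcnv1 among those added. Kcnab1, a beta subunit that speeds Kv1 inactivation, ranged from 30.3 to 148 CPM over the 18 rats, highest in rat 17 and lowest in rat 10, with a slope of -0.28 ± 0.07 (SE, edgeR adjusted p = 0.0635). Kcnab2 had -0.15 ± 0.04 (adjusted p = 0.0811) and Kcnc2, a Kv3 subunit of fast-firing interneurons, 0.24 ± 0.07 (adjusted p = 0.0936). Kcnc2 was low, at 109.7 to 136 CPM, in all 4 rats that stood apart, and without them its slope was -0.13. Kcnh4 and Kcnf1 had 0.13 ± 0.06 and 0.44 ± 0.21 (adjusted p = 0.360 and 0.386), and without the 4 rats -0.13 and -0.47.

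Kcns3, a Kv2 modifier, ranged from 6.23 to 30.3 CPM (median 27.6) in control, 8.20 to 30.0 CPM (median 23.9) in chronic ethanol and 10.7 to 25.0 CPM (median 23.0) in withdrawal rats. The groups overlapped and the low rats were 5, 8 and 13, while rat 17, with the least dopamine transcript, held 23.7 CPM. The slope was 0.29 ± 0.13 (SE, edgeR adjusted p = 0.339), and it depended on which rats were in: 0.75 without rat 17 (adjusted p = 0.00234) and 0.19 without rat 8 (adjusted p = 0.808).

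Of 26 partner genes of Kv channels listed from general knowledge, 24 could be tested and 0 were called in any of these fits. Against chronic ethanol, 8 were higher and 16 lower in withdrawal (53.3% of all genes were higher), with 4 at an unadjusted p under 0.05 (16.7%, against 15.3% of all genes). Against control 4 were higher and 20 lower (53.7% of all genes were higher), with 3 at that p (12.5%, against 9.82%). Both counts at that p were near the background. Chronic ethanol against control had 17 higher and 7 lower (48.7% of all genes were higher), with 0 at that p (5.84% of all genes). Its lowest p values belonged to Dlg4, a scaffold of synapses (log2 change 0.23), and Kcne4, an accessory subunit (-0.31). Amigo1, the adhesion protein that travels with Kv2 channels, ranged from 111 to 139 CPM (median 122) in chronic ethanol and 91.4 to 109.6 CPM (median 107) in withdrawal rats. All 6 withdrawal rats were below every ethanol rat (the groups were apart in 1.36% of all genes), and the log2 change was -0.23 ± 0.09 (SE, edgeR adjusted p = 0.248). Kcne2, an accessory subunit of Kv and ERG channels, was at 118 CPM in rat 13 and at 2.76 to 5.19 CPM elsewhere, and its log2 change of 2.66 ± 0.81 against control (adjusted p = 0.366) is that of this rat. On the dopamine marker mean, Dlg1, a Kv1 scaffold, had a slope of -0.12 ± 0.04 (adjusted p = 0.143).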

How the data were processed

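Stranded mRNA libraries of 18 rats were sequenced as read pairs, per the labels' protocols. The authors deposited whole-number counts of read pairs for each RefSeq gene of Rnor_6.0, from featureCounts 1.5.0 per the file headers. Its settings were reverse-strand counting without multi-mapping, multi-gene or chimeric pairs. Alignment was with STAR 2.5.2a, and R 3.3.3 and limma are named, per the submitters' processing notes. Names came by gene ID from a RefSeq table of GRCr8, which matched 29322 of 38445 genes. Gene positions come from the files (Rnor_6.0), promoter windows from RefSeq (GRCr8).

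CPM were scaled by TMM factors, except for the choice of members, which used library totals. RPKM are those CPM per kilobase of exon length. Genes that passed filterByExpr (17637) were tested in R 4.3.3 with the quasi-likelihood test of edgeR 4.0.16, without robust fitting, on all 18 libraries, two-sided, with Benjamini-Hochberg adjustment over all of them and calls at an adjusted p under 0.05. All 38 members passed that filter. SE was obtained from each log2 change and its F value. The slope fit had group and the mean log2 CPM (prior count 2) of 15 dopamine neuron markers as terms. P-values set a group difference or a slope against the spread among these rats. The fits were checked on simulated counts drawn for each gene separately, with no rats that stood apart. That check cannot show how the tests behave with such rats. Other settings were RLE factors, robust fitting, no filter or one at 1 CPM in 6 libraries, limma-voom (limma 3.58.1), DESeq2 1.42.0, the first library index or the marker mean as a term, only the groups compared, each rat left out, and fits without rats 5, 8, 13 and 17 or without the 2 rats farthest from the median marker mean. The first index is 1 sequence in rats 1 to 8, another in 9 to 16 and another in 17 and 18.

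Members were named if called, with the 3 lowest p of a group test, with groups apart, with the highest RPKM of a family, with the 5 lowest p of the slope in each direction, among the 3 largest SD, or just inside or outside the level that chose them, as were the 2 partners with the lowest p in a comparison. Some genes that enter the counts are not reported by name here. The members, lists and settings were chosen with earlier results of these data known.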

Additional observations from a re-analysis of the deposited data

Results flagged for a closer look

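In each gene and group of 6 rats, the gap between the most extreme rat and the next was set against the range of the group (Dixon's test at the 95% level). Of 102 such groups in 34 genes 24 had a rat beyond it, where chance gives about 5% in independent groups. The same count over all genes tested was not made, so the excess is not shown to be particular to the subunits. In rats 13 and 5, 17.7% and 7.06% of all genes tested lay more than 1 log2 unit from their median. Of the 24 groups, 10 were flagged for withdrawal rat 13, 7 for control rat 5, 3 for ethanol rat 8, 2 for withdrawal rat 17, 1 for control rat 1 and 1 for ethanol rat 10.

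Rat 13 was far below the other withdrawal rats in Kcna6 (136 CPM), Kcna4 (5.37 CPM), Kcnab3 (22.8 CPM), Kcnc1 (93.5 CPM), Kcnc4 (36.3 CPM), Kcnh2 (49.8 CPM) and Kcns3 (10.7 CPM). It was far above them in Kcnh6 (344 CPM), Kcna5 (22.1 CPM), and Kcnb2 (16.1 CPM). This rat had the summed markers of oligodendrocytes at 16600 CPM and of astrocytes at 1696 CPM, the lowest of 18 rats, and those of choroid plexus and meninges at 371 CPM, the highest. The part of these in its subunit values was not tested.

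Rat 5 was far above the other control rats in Kcnq5 (62.5 CPM), Kcnip3 (62.2 CPM), Kcnc4 (132 CPM), Kcna1 (106 CPM), Kcnv1 (7.31 CPM) and Kcns2 (6.39 CPM), and far below them in Kcnc2 (129.5 CPM). Rat 8 was far above the other ethanol rats in Kcnq5 (43.8 CPM), Kcns2 (7.04 CPM) and Kcns1 (2.70 CPM). Kcnq5 and Kcns2 were beyond the limit in both rats, which also share the high Slc17a7 and Hoxb3.

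Rat 17 was high in Kcnab1 (148 CPM) and low in Kcnd2 (94.2 CPM) among withdrawal rats. Rat 1 was high in Kcnh7 (40.5 CPM) among control rats, and rat 10 low in Kcna5 (1.24 CPM) among ethanol rats.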

How the results depend on the processing

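No subunit gene was called between groups under any setting, except Kcnip4 in DESeq2 (1 gene against chronic ethanol and 1 over the 3 groups, with 301 and 298 of all genes), which gave a p for 35 of the 38 genes. The slope called 4 subunit genes (327 of all genes), 7 with DESeq2 (765), 1 with limma-voom (302), 1 with no filter (289), 2 with the index as a term (224) and 2 without rats 5, 8, 13 and 17 (124). Leaving out 1 rat gave 1 to 10 genes (139 to 1103 of all genes): 10 without rat 13 (1103), 7 without rat 17 (936), 3 without rat 7, 2 without rat 1, 5, 6, 10 or 18, and 1 without any other rat, the 1 being Kcnd3. The cause was not tested.

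Direction was reversed for Kcnh6 against control (-0.036 without the 4 rats, and -0.076 without rat 13 to 3.33 without rat 14) and against chronic ethanol (-0.28, and -0.29 without rat 13 to 3.11 without rat 16). It was also reversed for Kcna5 against control (-0.018, and -0.034 without rat 13 to 1.61 without rat 15), for Kcnd1 in chronic ethanol against control (0.015 with the index), and for the slopes of Kcnc2 (-0.13), Kcnh4 (-0.13) and Kcnf1 (-0.47) without the 4 rats. 

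No paired analysis was possible because every rat carries its own number and none links rats across groups. Control and withdrawal libraries share no index, so a model with both compares them only through the chronic ethanol rats, which hold 2 of the indexes. Counts gave at least 15 reads for each member in each rat. With 6 rats a group, wide spread in the members limits what could be called. Beyond the fits with the dopamine neuron marker mean, the part of tissue makeup in the values was not tested.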
